A study of Mus musculus with 4 samples.

Results

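The CCN genes encode a family of secreted matricellular proteins. The 5 members described here were found in the deposited count table under their older names, Cyr61 (now Ccn1), Ctgf (Ccn2), Nov (Ccn3), Wisp1 (Ccn4) and Wisp2 (Ccn5). They were taken as these 5 named rows of the 24421 rows in the table. All 5 passed the filter on low counts that left 13103 genes for testing.

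Messenger RNA had been sequenced from the superficial zone of knee articular cartilage, taken at the medial femoral condyle of C57BL/6J mice 8 weeks after surgery. In destabilization of the medial meniscus (DMM) a ligament that anchors the meniscus is cut, and osteoarthritis develops in the unstable joint. The knees came from 2 mice, M04 and M05, each with a DMM knee and a sham-operated knee, which gave 4 libraries and n = 2 in each group. The sample labels call both animals wild type, while the series' design text marks M05 as knockout without naming a gene, so M05 and M04 are compared here as animals only. For both sham samples the description field mentions a knee with DMM. Their titles and treatment fields say sham and were followed. Neither the age nor the sex of the mice is used here.

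The libraries held 12712425 to 19336628 counts. Much of this RNA came from outside cartilage: 5 erythroid markers together reached 116707 to 203625 CPM, the unit of counts scaled to library size, here always with TMM factors. The 10 chondrocyte markers together reached 5187 CPM in the M04 sham, 6027 CPM in the M04 DMM, 1382 CPM in the M05 sham and 4689 CPM in the M05 DMM library. Each of these 10 markers, Col2a1, Acan and Sox9 among them, was counted in all 4 libraries, and the M05 sham library stood apart with the least of their RNA. Prg4, the lubricin gene that marks the superficial zone, had 90.0 to 315 CPM. In a mixed tissue of this kind, fewer cells of a type and less RNA per cell cannot be told apart.

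CCN proteins are built from modules that resemble the IGF-binding proteins, von Willebrand factor type C, thrombospondin and, in all but Wisp2, a C-terminal cystine knot. They act in the matrix around the cell by binding integrins, heparan sulfate proteoglycans and growth factors rather than through a receptor of their own. Cyr61 and Ctgf are classic targets of the mechanically regulated coactivators YAP and TAZ, and Ctgf is also induced by TGF-beta. In cartilage, Ctgf is known for its role in the growth plate, where chondrocytes secrete it, and Nov for its antagonism to Ctgf in several cell types. Wisp1 and Wisp2 were found as Wnt-induced genes, and Wisp1 is a known product of osteoblasts and of osteoarthritic joints.

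Promoter sequence from RefSeq was at hand here for 1 of the 5 members, Cyr61, and is shown for that reason. Cyr61 is a textbook target of YAP acting with the TEAD factors. The 250 bases before the annotated start of Cyr61 lie at chr3:145649986-145650235 of GRCm38.p6, on the minus strand, with capitals at motif matches found on either strand.
Cyr61: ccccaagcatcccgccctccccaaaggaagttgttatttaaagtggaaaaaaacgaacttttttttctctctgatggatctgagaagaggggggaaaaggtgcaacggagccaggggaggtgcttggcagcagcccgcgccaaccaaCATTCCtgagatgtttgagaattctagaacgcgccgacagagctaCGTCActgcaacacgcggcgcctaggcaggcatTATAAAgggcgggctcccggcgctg
Counted back from the start, the core of the TEAD element (CATTCC) was found at -103 to -98, on the strand of the gene. A CRE half-site (TGACG on the opposite strand, printed as CGTCA) was found at -58 to -54, and a TATA box (TATAAA) at -25 to -20. The matches do not overlap each other. Over 32851 promoter windows of the same length, 12.6% held CATTCC, 17.8% held TGACG and 12.4% held TATAAA on either strand. A CArG box, the letters bound by serum response factor, was not found in this window and occurred in 1.47% of all windows. These matches describe the sequence and do not show that a factor binds there.

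Scaled for transcript length in the deposited FPKM table, the 5 genes kept one order in every library: Ctgf, Wisp2, Cyr61, Wisp1 and Nov. Ctgf had levels of 20.0 to 52.2 FPKM and made up 63.3% to 80.1% of the summed FPKM of the family. Wisp2 had 4.51 to 9.40 FPKM and Cyr61 3.18 to 8.46 FPKM, so these neighbours in the order overlapped across libraries. Wisp1 stayed between 1.34 and 2.0 FPKM and Nov between 0.217 and 0.897 FPKM. Ctgf thus stood well above the rest of the family, and Wisp2 and Cyr61 above Wisp1 and Nov, in each library. By its FPKM level, Ctgf lay above 79.1% to 91.0% of the genes tested, and Nov above 5.35% to 17.3%.

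The first comparison asked how CCN transcripts differ between DMM and sham knees. Cyr61 rose 2.21-fold and Ctgf 1.49-fold in DMM knees, and both passed edgeR's quasi-likelihood test with the mouse as a block, at a Benjamini-Hochberg adjusted p under 0.05 over all genes. Wisp2 (1.66-fold), Nov (1.64-fold) and Wisp1 (1.02-fold) did not pass. In all, 2 of 5 members were called higher, against 0.633% of all genes tested (83 of 13103), and no member was called lower, against 0.0153% (2 of 13103). DESeq2 called 0 of the 5 members. The log2 ratio of DMM to sham was above 0 in both mice for 4 of 5 members, against 23.2% of all genes. The CPM of both DMM libraries lay above both sham libraries for Cyr61 and Wisp2, against 13.2% of all genes. The median log2 fold change of the 5 members was 0.71, against -0.01 for all genes tested.

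**Figure D1:**
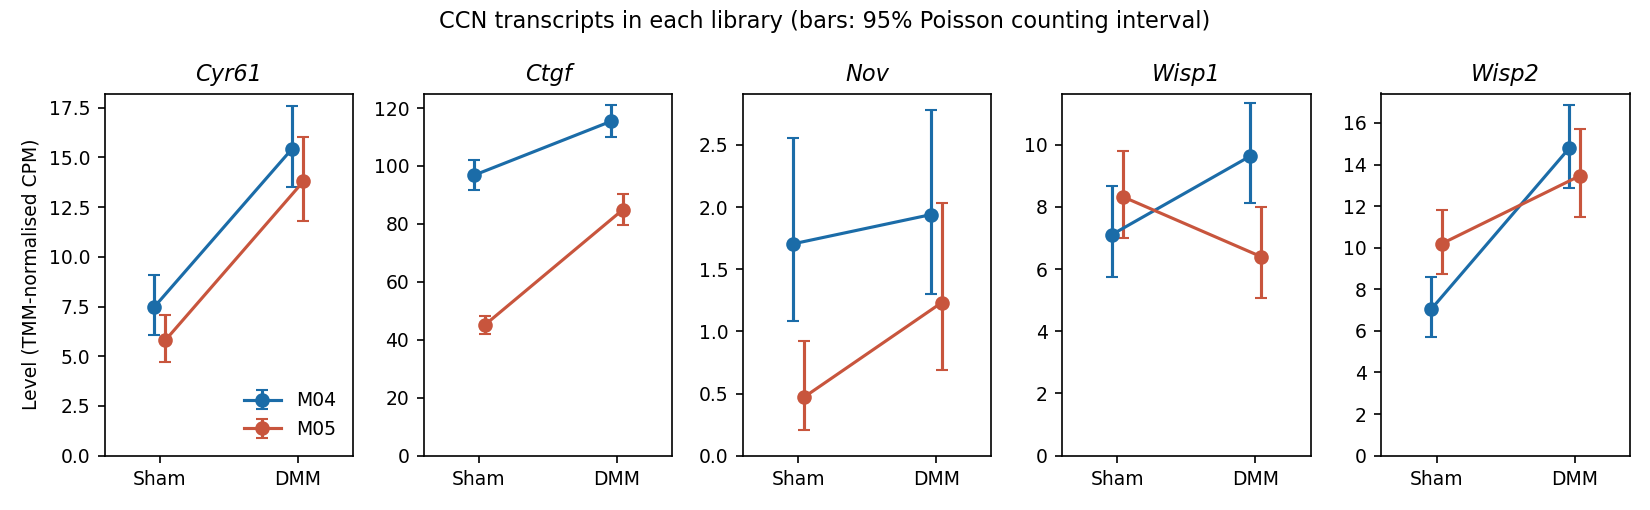
Level of each CCN gene in TMM-normalised CPM (vertical axes, linear from 0) in the sham and DMM knee of M04 (blue) and M05 (red), with lines joining the knees of a mouse and bars for the 95% Poisson interval, which covers counting error only. Cyr61 stood at 7.48 (sham) and 15.4 CPM (DMM) for M04 and at 5.81 and 13.8 CPM for M05, while the lines of Wisp1 cross.

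Cyr61, an integrin ligand that acts in angiogenesis, wound healing and chondrogenesis, had 7.48 CPM (101 counts) in the sham and 15.4 CPM (231 counts) in the DMM knee of M04. In M05 it had 5.81 CPM (99 counts) in the sham and 13.8 CPM (168 counts) in the DMM knee. Both DMM knees were high, both sham knees were low, and the groups did not overlap. The group means were 6.64 ± 1.18 CPM in sham and 14.6 ± 1.17 CPM in DMM knees (SD, n = 2). The log2 fold change was 1.15 (SE 0.27, edgeR adjusted p = 0.00636), with a 95% interval from 0.61 to 1.68. The ratio of CPM between the knees was 2.06 in M04 (95% Clopper-Pearson interval 1.63 to 2.64) and 2.38 in M05 (1.84 to 3.08). These intervals cover counting error only. The rise was therefore seen at a like size in both animals. Without the mouse as a block its adjusted p was 0.963 at a log2 fold change of 1.14, and with DESeq2 it was 0.887 at 1.15. In fits of 3 libraries with no mouse term it passed with the M04 sham library left out (1.33) and not with the M04 DMM (1.06), M05 DMM (1.22) or M05 sham library (0.97) left out.

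Ctgf, the most abundant member and a cofactor of TGF-beta in fibrous matrix deposition, had 96.7 CPM (1306 counts) in the sham and 115 CPM (1727 counts) in the DMM knee of M04. In M05 it had 45.0 CPM (768 counts) in the sham and 84.8 CPM (1033 counts) in the DMM knee. The sham knee of M05 was the low sample, and the sham knee of M04 lay above the DMM knee of M05, so the groups overlapped. The group means were 70.9 ± 36.6 CPM in sham and 100.2 ± 21.7 CPM in DMM knees (SD, n = 2). The log2 fold change was 0.58 (SE 0.16, edgeR adjusted p = 0.0380), with a 95% interval from 0.27 to 0.89. The ratio of CPM was 1.19 in M04 (95% Clopper-Pearson interval 1.11 to 1.28) and 1.88 in M05 (1.71 to 2.07). Most of the pooled rise thus came from M05. With the M05 sham library left out, in a fit with no mouse term, the log2 fold change was 0.05 (adjusted p = 1.0), and with the M04 sham library left out it was 1.16 (adjusted p = 0.0010). With the M04 DMM library left out it was 0.26 and with the M05 DMM library left out 0.71, neither past the threshold. Without the mouse as a block, with all libraries, it was 0.50 (adjusted p = 1.0).

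Wisp2, the member that lacks the C-terminal module and is known to restrain proliferation in smooth muscle, had 7.04 CPM (95 counts) in the sham and 14.8 CPM (221 counts) in the DMM knee of M04. In M05 it had 10.2 CPM (174 counts) and 13.5 CPM (164 counts). The DMM knees were both above the sham knees and close to each other, while the sham knees differed. The log2 fold change was 0.73 (SE 0.26, 95% interval 0.22 to 1.24), with an unadjusted p of 0.00528 that did not pass over all genes (edgeR adjusted p = 0.364). The ratio of CPM was 2.10 in M04 (95% Clopper-Pearson interval 1.64 to 2.70) and 1.32 in M05 (1.06 to 1.64). In fits of 3 libraries with no mouse term the log2 fold change was 0.47 with the M04 sham library left out and 1.0 with the M05 sham library left out. The larger ratio in M04 was the reverse of the order for Ctgf, whose ratio was larger in M05.

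Wisp1, a secreted protein of osteoblast-lineage cells, had 7.11 CPM (96 counts) in the sham and 9.63 CPM (144 counts) in the DMM knee of M04. In M05 it had 8.33 CPM (142 counts) in the sham and 6.40 CPM (78 counts) in the DMM knee. The groups overlapped, since the DMM knees held both the highest and the lowest value. The log2 fold change was 0.03 (SE 0.31, 95% interval -0.57 to 0.63, edgeR adjusted p = 1.0). The log2 ratio was 0.43 in M04 and -0.37 in M05. The list of 8 skeletal muscle markers moved in the same directions, with a summed level of 148 CPM (sham) and 392 CPM (DMM) for M04 and of 523 and 159 CPM for M05. Whether that tissue had a part in the Wisp1 values was not tested.

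Nov was the scarcest member, with 1.70 CPM (23 counts) in the sham and 1.94 CPM (29 counts) in the DMM knee of M04. In M05 it had 0.469 CPM (8 counts) and 1.23 CPM (15 counts). The sham knee of M05 was lowest, and the groups overlapped. The log2 fold change was 0.71 (SE 0.74, 95% interval -0.75 to 2.17, edgeR adjusted p = 1.0), and it was -0.09 with the M05 sham library left out. The ratio of CPM was 1.14 in M04 (95% Clopper-Pearson interval 0.64 to 2.06) and 2.63 in M05 (1.04 to 7.15). A change of the size seen in Cyr61 was not detectable for Nov at this depth.

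**Figure D2:**
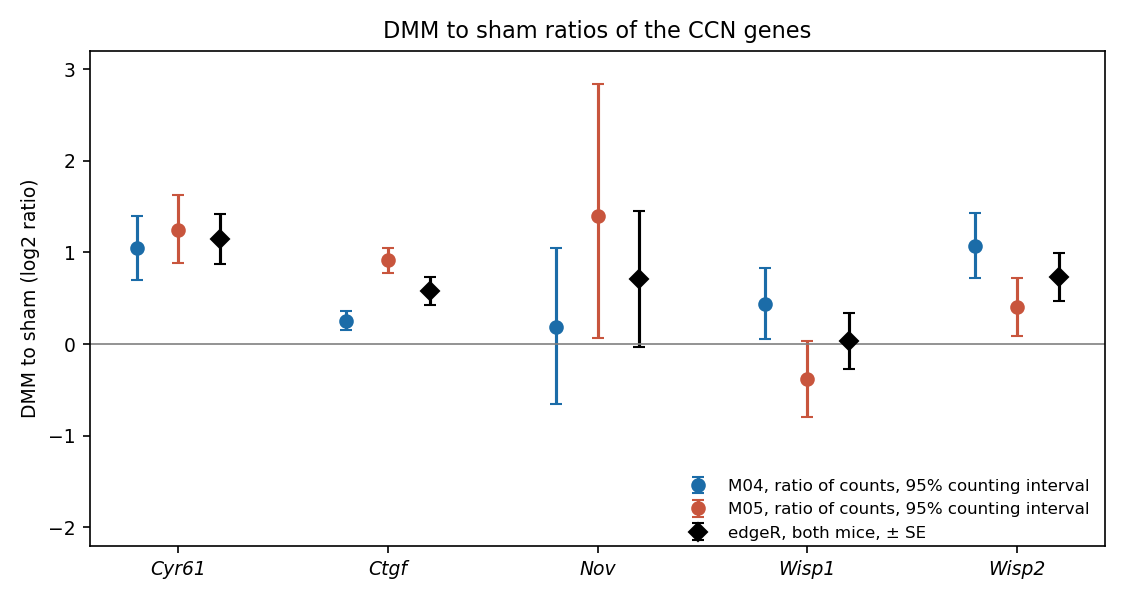
DMM to sham ratio of each CCN gene on a log2 scale. Circles give the ratio of counts, scaled as CPM, within M04 (blue) and M05 (red) with 95% counting intervals. Diamonds give the edgeR log2 fold change over both mice with its SE. Cyr61 stands near 1 in both mice, Ctgf is larger in M05, Wisp2 is larger in M04, and Wisp1 lies above 0 in M04 and below 0 in M05.

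The next comparison asked whether the animals differed in their responses. With mouse and surgery both as terms, nothing is left to estimate the spread of that difference. The M04 DMM and M05 sham libraries were therefore set against the other pair, with mouse and surgery counted as spread. Each side of this contrast is a mean of 2 libraries, fitted without the pairing of the knees. Its value is therefore smaller than the difference between the log2 ratios of the animals. For Wisp1 these ratios were 0.43 in M04 and -0.37 in M05. No member passed edgeR's quasi-likelihood test in this contrast, where 0.0153% of all genes did (2 of 13103). The contrast was 0.41 for Wisp1 (SE 0.28, 95% interval -0.14 to 0.95) and 0.29 for Wisp2 (SE 0.34, interval -0.38 to 0.96). It was -0.18 for Ctgf (SE 0.39, interval -0.95 to 0.59), -0.30 for Nov (SE 0.75, interval -1.78 to 1.18) and -0.004 for Cyr61 (SE 0.45, interval -0.89 to 0.88). Each of the 5 had an adjusted p of 1.0, 0 had an unadjusted p under 0.05, and DESeq2 called 0 of them. The intervals are wide, so alike responses are not shown by them either. They use the normal distribution and are narrower than the quasi-likelihood test would give.

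Between the animals themselves, Ctgf was lower in M05 in both kinds of knee, at 45.0 against 96.7 CPM in sham and 84.8 against 115 CPM in DMM. Its log2 difference, M05 minus M04, was -0.77 (SE 0.16, edgeR adjusted p = 0.000252), and 1.64% of all genes tested were called lower in M05 (215 of 13103) and 0.962% higher (126). The difference was -0.32 with the M05 sham library left out and -1.24 with the M05 DMM library left out, in fits of 3 libraries with the mouse as the term. With the M04 DMM library left out it was -0.58 and with the M04 sham library left out -0.83, and of these 4 fits 1 passed, the one without the M05 DMM library. The other 4 members did not pass, with -0.26 for Cyr61 (SE 0.27), -1.21 for Nov (SE 0.75), -0.18 for Wisp1 (SE 0.31) and 0.19 for Wisp2 (SE 0.26). Of the 10 chondrocyte markers, 7 were called lower in M05, and their part in the Ctgf difference was not tested.

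**Figure D3:**
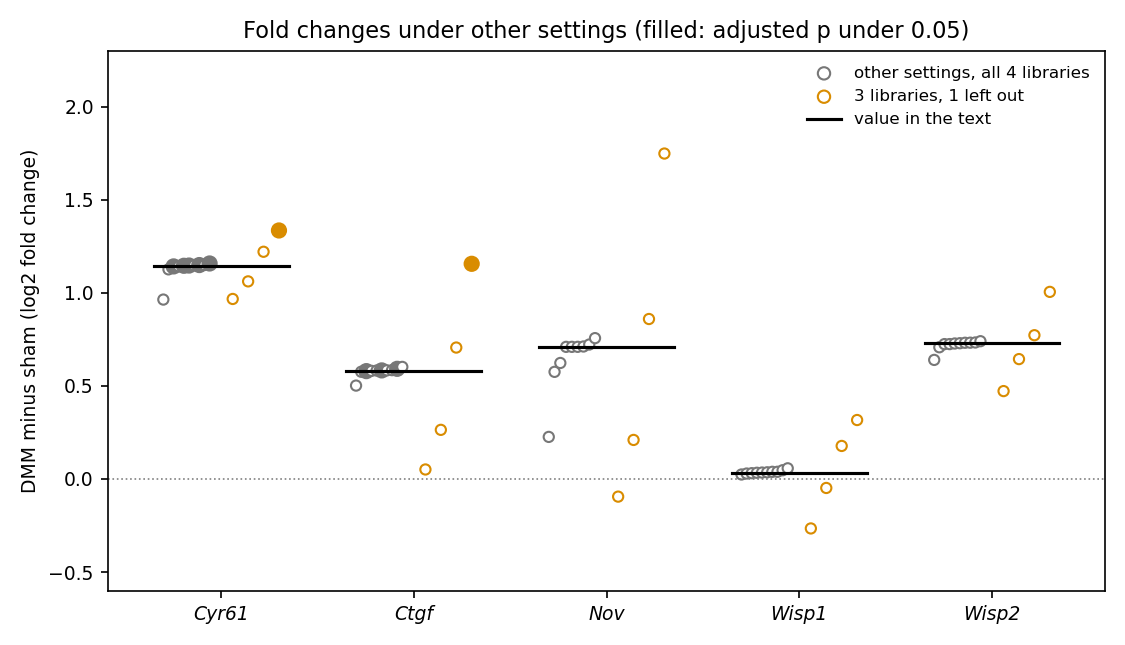
Log2 fold change of DMM against sham for each CCN gene with the value in the text (black line), in other settings with all 4 libraries (grey) and in fits that leave out 1 library (orange), filled where the adjusted p was under 0.05. Cyr61 stays between 0.96 and 1.33, whereas Ctgf runs from 0.05 to 1.16 depending on the library left out.

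The chondrocyte markers moved with the surgery as well, so each member was also set against them. Of these 10 markers edgeR called 7 higher in DMM knees and none lower, while DESeq2 called 0. The 10 markers had a median log2 ratio of 0.33 in M04 and 1.57 in M05. Col2a1 alone held 3822 of their 6027 CPM in the M04 DMM library and 726 of 1382 CPM in the M05 sham library. Their summed counts therefore weigh Col2a1 most. Per 1000 counts of these markers, Ctgf had 18.7 (sham) and 19.2 (DMM) in M04, and 32.6 and 18.1 in M05. On this scale Ctgf was nearly level in M04 and higher in the sham knee of M05, the opposite of its CPM direction in that mouse. Cyr61 had 1.44 and 2.56 per 1000 in M04, and 4.2 and 2.94 in M05. Its direction on this scale thus stayed upward in M04 and turned in M05. Wisp2 had 1.36 and 2.45 in M04 and 7.38 and 2.87 in M05, and Wisp1 had 1.37 and 1.6 in M04 and 6.02 and 1.37 in M05. Nov moved least, with 0.328 and 0.322 in M04 and 0.339 and 0.263 in M05. Against the 7 endothelial markers, which held 315 and 287 CPM in M04 and 234 and 272 CPM in M05, Cyr61 had 23.8 and 53.9 counts per 1000 in M04 and 24.8 and 50.7 in M05. Its direction against endothelial markers was therefore the same as in CPM in both animals. The other members kept their CPM directions too, with Ctgf at 307 and 403 per 1000 in M04 and 192 and 312 in M05. Vwf weighed most in this list, with 172 of the 315 CPM in the M04 sham and 158 of the 272 CPM in the M05 DMM library. Per 1000 counts of 8 osteoblast and osteocyte markers, Ctgf had 64.6 (sham) and 62.0 (DMM) in M04, and 24.9 and 42.3 in M05. Nov had 1.14 and 1.04 in M04, and 0.260 and 0.614 in M05. On that scale Ctgf and Nov thus turned in M04, while Cyr61, Wisp1 and Wisp2 kept their CPM directions in both animals.

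**Figure D4:**
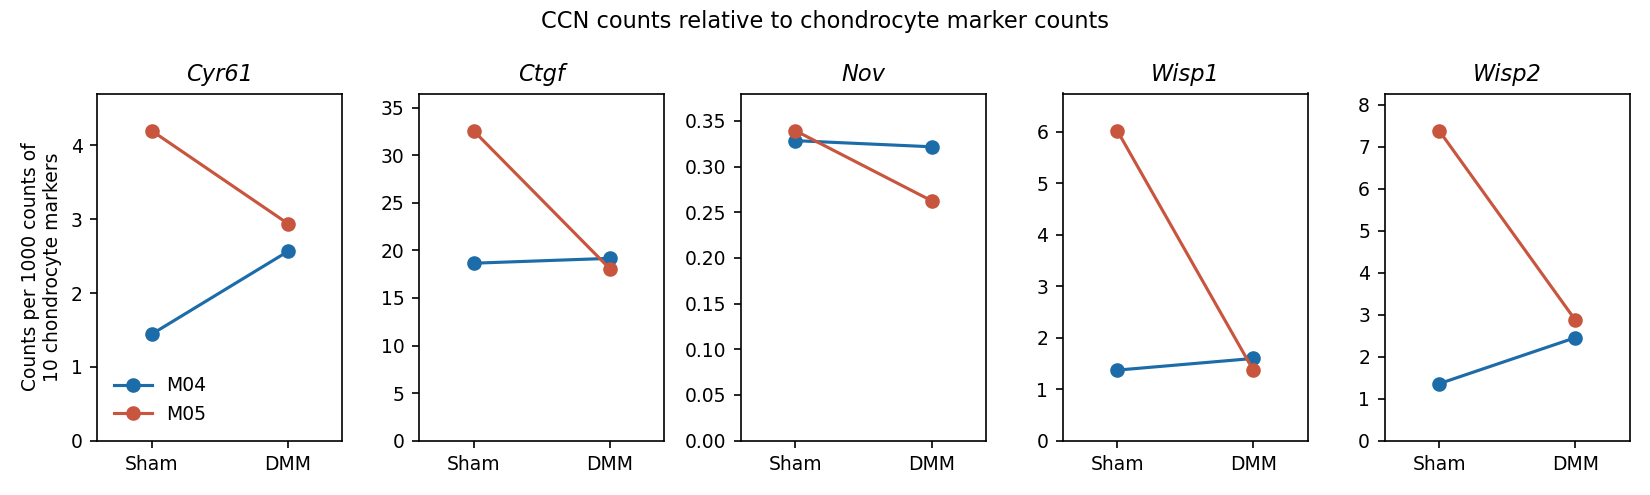
Counts of each CCN gene per 1000 counts of 10 chondrocyte markers (vertical axes, linear from 0) in the sham and DMM knee of M04 (blue) and M05 (red). The sham knee of M05 is the highest point for every member, and the DMM knees lie close together, for Ctgf at 19.2 and 18.1.

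Other cell types were represented to differing degrees. The 8 osteoblast and osteocyte markers reached 1497 (sham) and 1861 CPM (DMM) in M04 and 1807 and 2006 CPM in M05, and edgeR called 2 of them higher (Ibsp and Alpl). The 8 markers of synovial and tendon fibroblasts reached 78.6 and 84.0 CPM in M04 and 78.7 and 82.8 CPM in M05, with Scx and Tnmd, which mark tendon, at 0 in the M04 sham library, and Clec3b was the 1 of 6 tested that was called higher. The 6 mural and smooth muscle markers reached 82.8 and 116 CPM in M04 and 88.7 and 83.3 CPM in M05, and Cspg4 was called higher. Of the 6 superficial-zone markers 1 was called higher, Prg4. These calls among osteoblast, fibroblast, mural and superficial-zone markers were made by edgeR, and DESeq2 called 0 genes in each of these lists. Among markers of endothelium, skeletal muscle, marrow reticular cells, granulocytes, macrophages and megakaryocytes, 0 were called in either direction with edgeR or DESeq2, and 0 had an unadjusted edgeR p under 0.05. The part of these cells in the CCN values was not tested.

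Among the matrix and growth factor partners of CCN proteins, 2 of 10 genes were called higher and none lower with edgeR, and DESeq2 called 2 as well, with a median log2 fold change of 0.57. Fibronectin (Fn1), a matrix ligand of Ctgf, rose by 0.74 (SE 0.16, edgeR adjusted p = 0.00128), and decorin (Dcn), a proteoglycan that binds Ctgf, by 0.96 (SE 0.15, adjusted p = 5.37e-07). Biglycan (Bgn) stood at 0.48 (adjusted p = 0.286). Of the receptors 0 of 13 passed with edgeR or DESeq2, 0 had an unadjusted edgeR p under 0.05, and the median log2 fold change was 0.14. The smallest p-values were those of the integrin chain Itga5 (0.32), the growth factor receptor Fgfr2 (0.36) and the proteoglycan Sdc4 (0.27).

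The YAP and TAZ target list, which here excludes Cyr61 and Ctgf, had 2 of 17 tested genes called higher and none lower with edgeR, and 0 called with DESeq2. Nt5e, the surface enzyme that makes adenosine, rose by 1.54 (SE 0.29, edgeR adjusted p = 7.01e-05), and the matrix protein gene Ccdc80 by 0.71 (SE 0.16, adjusted p = 0.0020). Myof, which encodes a membrane repair protein, stood at 0.92 (adjusted p = 0.252). The median of this list was 0.03, close to that of all genes, and Ankrd1, a defining target, had too few counts to be tested. Of the pathway itself 0 of 14 tested genes passed with edgeR or DESeq2. An unadjusted edgeR p under 0.05 was found for 4 of the 17 target genes and 3 of these 14 pathway genes. Of all 13103 genes tested, 681 had such a p. Yap1 stood at 0.98 (adjusted p = 0.211), Vgll4, a competitor of YAP for TEAD, at -0.90 (adjusted p = 0.558) and the kinase adaptor Mob1a at -0.42 (adjusted p = 0.943).

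The remaining lists of upstream signals held no called gene in either direction with edgeR or DESeq2. Of 9 TGF-beta target genes Pmepa1 stood at 0.68 and Tgfbi at 0.17, and the median was 0.19. Of 7 tested Wnt target genes the smallest p-values were those of Notum (1.63), Rnf43 (-1.18) and Nkd2 (-0.72), and the median was 0.25. Of 10 tested immediate-early genes, the rapid-response class to which Cyr61 itself belongs, they were those of Junb (-0.36), Fos (0.48) and Egr2 (-0.85), and the median was 0.06. Of 9 tested cytoskeletal targets of serum response factor they were those of Srf (-0.29), Myh9 (-0.18) and Acta2 (0.20), and the median was 0.08. At an unadjusted edgeR p under 0.05, Pmepa1 and Notum were the members of these lists that passed, both higher in DMM knees. Over all genes tested, 681 of 13103 did. Wisp3 (Ccn6), the family gene that is no member here, had 2.07 (sham) and 1.0 CPM (DMM) in M04 and 0.528 and 1.15 CPM in M05.

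**Figure D5:**
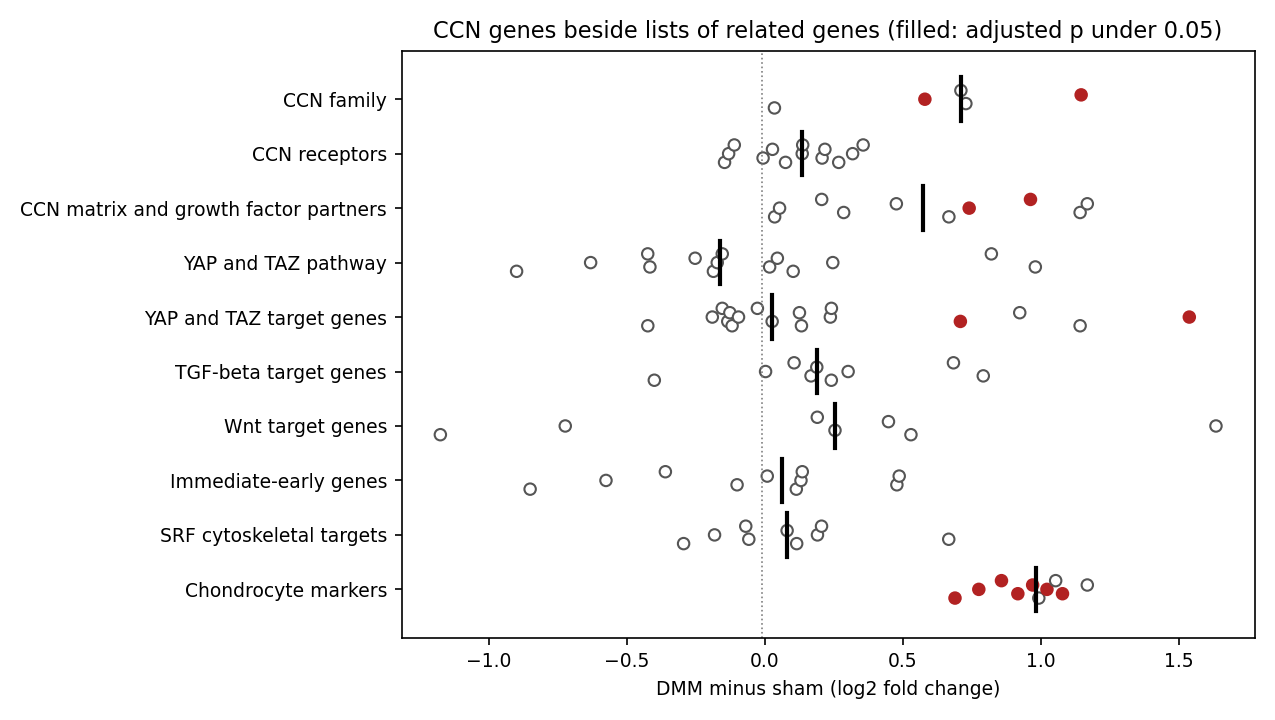
Log2 fold change of DMM against sham (horizontal axis) for each tested gene of the CCN family, of 8 lists of related genes and of the chondrocyte markers, filled red where the adjusted p was under 0.05, with black bars at list medians and a dotted line at the median of all genes. The chondrocyte markers have a median of 0.98 and the CCN family 0.71, while the YAP and TAZ target list stands at 0.03.

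Over the 4 libraries, patterns were compared by the root mean square difference between centred log2 CPM values, among 9204 named genes that averaged 5 CPM or more. The members were not alike among themselves: Ctgf and Nov were closest, at 0.19, and Nov and Wisp2 farthest apart, at 0.77. Nearest to Cyr61 were Nbl1, a secreted BMP antagonist (0.021), Cd248, a stromal cell surface protein (0.060), and the non-coding RNA H19 (0.084). Nearest to Ctgf were Col11a1, a collagen of cartilage fibrils (0.027), the receptor gene Neo1 (0.046) and P3h2, which modifies collagen prolines (0.054). Nearest to Nov were Matn3, a cartilage matrilin (0.046), Car12 (0.071) and Cspg4 (0.095). Wisp1 was nearest to Cbll1 (0.026), Tmem56 (0.028) and Zc3h7a (0.028), and Wisp2 to Col8a1 (0.023), Rhoc (0.071) and Sspn (0.072). With 4 libraries and so many candidates, small differences of this kind are easily found, so these neighbours are a description only.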

How the data were processed

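Estimated counts per gene were deposited by the authors. The submitters' processing notes name GRCm39 (mm39) as the build. How reads were aligned and counted, and whether strand was kept, is not given in the sources used here, so reads of overlapping genes cannot be told apart. Library columns were deposited in duplicate with equal values and used once. All counts of the 5 members were whole numbers, and no other row repeated them. The FPKM values were deposited by the authors too. They served for levels per length and for alternatives, with pseudocounts of 1 and 0.1.

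Rounded counts entered edgeR 4.0.16 (R 4.3.3, filterByExpr, TMM, robust quasi-likelihood fit with mouse and surgery as terms, Benjamini-Hochberg adjustment over 13103 genes, threshold 0.05), after the procedure had been tested on simulated data. SEs were derived from the F statistic. Per the labels each animal gave both of its knees, so the mouse entered as a block, and deviations of same-mouse libraries correlated at 0.126. The fit has 1 residual degree of freedom. For 83.0% of genes, 4 of the members among them, the spread came wholly from the trend across genes. For Ctgf, the remaining member, that trend weighed 10796 degrees of freedom, so nearly all of its spread came from there too. P-values thus hardly measure how far the 2 mice differ. Log2 ratios within a mouse use a prior count of 2. The Poisson and Clopper-Pearson intervals at 95% cover counting error only. Those of edgeR log2 fold changes and of the contrast of responses were taken from the SE with the normal distribution. For the contrast of responses this makes them too narrow, since its test has few degrees of freedom.

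The 22 gene lists held 176 genes, of which all were found, 2 under another name. The members, the lists and the rule for named genes were chosen with earlier results of these data known. Named genes of a list are those past the threshold and, where under 3 passed, those with the smallest p-values. Some items that this rule selects are not reported here. Likeness rests on the 3 nearest genes per member. DESeq2 1.42.0, limma 3.58.1, other scalings and filters, a fit without the block and fits without each library were alternatives.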

Additional observations from a re-analysis of the deposited data

Results flagged for a closer look

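Wisp1 had a log2 ratio of DMM to sham of 0.43 in M04 and of -0.37 in M05, opposite directions in the 2 animals with 1 library per knee. The M04 DMM and M05 sham libraries, set against the other pair, did not pass edgeR's quasi-likelihood test (contrast 0.41, adjusted p = 1.0). Each side of this contrast is a mean of 2 libraries, fitted without the pairing of the knees. Its value is therefore smaller than the difference between the log2 ratios of the animals. The 95% counting interval of the ratio was 1.04 to 1.77 in M04, which leaves out 1, and 0.576 to 1.02 in M05, which includes 1.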

How the results depend on the processing

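In 10 settings with all 4 libraries, the 5 members kept the sign of DMM against sham. Cyr61 passed in 5 of them and Ctgf in 3, and the other members in none. Calls lost were those of Cyr61 without haemoglobin rows (1.15, adjusted p = 0.0585), with DESeq2 (1.15) and with limma on log2(FPKM + 1) (0.96) or log2(FPKM + 0.1) (1.13), and of Ctgf in these settings (0.58, 0.58, 0.58 and 0.60), with RLE factors (0.58) and without a filter (0.58). Without the mouse as a block Cyr61 stood at 1.14 and Ctgf at 0.50, both no longer past the threshold, and 0 genes passed (322 at an unadjusted p under 0.05). Fits without 1 library also drop the mouse term, so 2 choices change at once. They gave 0.97 to 1.33 for Cyr61 and 0.051 to 1.16 for Ctgf, both called only without the sham library of M04. They gave 0.47 to 1.0 for Wisp2, -0.27 to 0.32 for Wisp1 and -0.095 to 1.75 for Nov. The 85 genes called became 35 with RLE factors, 25 without haemoglobin rows, 13 with DESeq2, 0 with either limma fit (530 and 474 at an unadjusted p under 0.05) and 0 to 109 without 1 library and the mouse term. For M05 against M04, Ctgf was lost with limma (-0.76 and -0.78) and with the mouse alone as a term (-0.71). Without 1 library, and with no surgery term, it ran from -1.24 to -0.32, Cyr61 from -0.99 to 0.37, Wisp1 from -0.39 to 0.050 and Wisp2 from -0.32 to 0.74. The 341 genes called became 186 with RLE factors, 114 without haemoglobin rows, 72 with DESeq2, 0 with limma (1096 and 1062 at an unadjusted p under 0.05), 0 with the mouse alone (1819) and 0 to 256 without 1 library and the surgery term. In the contrast of responses Cyr61 turned to 3.78e-05 with upper-quartile scaling. There the 2 genes called became 24 without a filter, 21 with DESeq2, and 0 at a mean of at least 5 CPM (161 at an unadjusted p under 0.05), without robust moderation (299) and with limma (454). The causes were not tested. Nov had no value at a mean of at least 5 CPM. Ratios within a mouse kept their sign and stayed within their counting intervals with a prior count of 0.5 and with FPKM. Depth limits Nov, with 8 to 29 counts a library.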
